A study of Mus musculus with 16 samples.

Results

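The β subunits of the sodium-potassium ATPase were read in single cells from the cortex of 17-month-old mice. The genes are Atp1b1, Atp1b2 and Atp1b3, which make up 3 of the 30389 genes in the count tables, and they were picked by symbol after their levels in these cells were known. The mice were heterozygous THY-Tau22 animals (TG) and their wild-type littermates (WT), from a line kept on C57Bl6/J by pairing carrier males with females of that strain. THY-Tau22 mice carry human four-repeat tau with the G272V and P301S mutations under the Thy1.2 promoter, which is active in neurons, and WT mice carry no transgene. The series holds 4 WT male, 4 THY-Tau22 male, 3 WT female and 5 THY-Tau22 female libraries, each read as 1 mouse. In 1 case the same code, which may name an animal, stands in a male and a female title (replicate 1 of the WT males and of the THY-Tau22 females). A WT male library (replicate 3) had 2952 of its 3000 cell barcodes in common with THY-Tau22 male replicate 4, whereas no other of the 120 pairs of libraries had more than 12 in common. The pair was therefore treated as 1 library, averaged in the levels by cell class (15 libraries) and left out of the genotype comparisons (14 libraries, of which 3 were left in each male group, 3 in WT females and 5 in THY-Tau22 females).

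The sodium-potassium ATPase uses ATP to move sodium out of the cell and potassium into it, and the gradients it builds drive action potentials, glutamate uptake and the clearance of potassium around firing neurons. Each pump pairs a catalytic α subunit with a glycosylated β subunit, which spans the membrane once and is needed to fold the pump and bring it to the cell surface. The β subunits also hold cells together through their outer domains: β1, the product of Atp1b1, links neighbouring epithelial cells, and β2, the product of Atp1b2, was described as an adhesion molecule on glia. β3, the product of Atp1b3, is found in many tissues.

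In mm10 coordinates (GENCODE M21 gene models), all 3 genes lie on the minus strand. Atp1b1 (ENSMUSG00000026576.12) runs from 164437109 to 164458355 on chromosome 1, Atp1b2 (ENSMUSG00000041329.13) from 69599736 to 69605942 on chromosome 11, and Atp1b3 (ENSMUSG00000032412.8) from 96332655 to 96364442 on chromosome 9. The Atp1b1 model overlaps the protein-coding gene Nme7 on the opposite strand, and whether reads were counted by strand is not given in the sources used here. Atp1b4, a further member of the family, had 13 UMIs in all.

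The 16 Drop-seq tables held 48000 barcodes and 25145717 unique molecular identifiers (UMIs), and 28530 barcodes had 200 to 7000 detected genes and were kept. Totals ran from 1041675 to 2237505 UMIs per library, with 1121 to 2526 kept barcodes and a median of 429 to 736.5 UMIs per kept barcode. Cells were clustered without the pump's own genes, and the clusters were named from marker genes as neuron-like, astrocyte-like and so on, written here without the suffix. The classes were 7919 microglia, 5605 astrocytes, 5351 oligodendrocytes, 4125 endothelial cells, 1461 neurons, 1316 oligodendrocyte precursor cells (OPCs), 981 mural cells, 379 macrophages and 139 ependymal cells. Levels are a gene's UMIs summed over all cells of a class in a library, divided by all UMIs of those cells and scaled to CPM, given as mean ± SD over libraries. Each UMI stands for 1 captured 3′ end, so levels of different genes were compared per molecule, with no division by transcript length. Over all kept barcodes Atp1b1 stood at 286 ± 95.7 CPM, Atp1b3 at 225 ± 49.1 CPM and Atp1b2 at 182 ± 55.8 CPM (SD, n = 15 libraries). These levels are given as a description without tests, since the genes were chosen with them known.

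Atp1b1 was highest in neurons. The neuron class ranged from 767.2 to 5602 CPM over libraries with a median of 1612 CPM, and its mean was 1961 ± 1223 CPM (SD, n = 15). Astrocytes ranged from 274.5 to 780.7 CPM with a median of 481.6 CPM (mean 526.1 ± 170, n = 15), and only the lowest neuron library fell within that range. OPCs (183 ± 96.2 CPM) and mural cells (157 ± 69.6 CPM) followed and could not be ordered, with OPCs above mural cells in 10 of 15 libraries. Ependymal cells gave 394 ± 354 CPM, a value that rested on the 4 libraries with at least 10 such cells. Oligodendrocytes (28.4 ± 16.4 CPM), endothelial cells (25.4 CPM), macrophages (24.4 CPM, 14 libraries) and microglia (23.9 ± 12.5 CPM) formed a low group with overlapping ranges.

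A small cluster outside the named classes had as much Atp1b1 as neurons. It was led by Prg4, Nov and Rspo3 and held 200 cells. Genes used as fibroblast markers (Col1a2 and Mgp) were found in it, but too few of the fixed markers led it for a name. In the 9 libraries with at least 10 of its cells Atp1b1 ranged from 1027 to 2502 CPM (mean 1831 ± 459, SD). The neuron class was above this cluster in 5 of 9 libraries, whereas the cluster was above astrocytes in 9 of 9 with no overlap of the ranges and a ratio of means of 3.48. Its marker UMIs for neurons and astrocytes stood at 249.9 and 1118 CPM, against 25722 CPM for neuron markers in the neuron cluster and 22100 CPM for astrocyte markers in the main astrocyte cluster. Atp1b1 made up 91.3% of the β UMIs in this cluster.

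Atp1b2 was an astrocyte gene in these libraries. Astrocytes ranged from 489.4 to 1289.7 CPM with a median of 775.7 CPM, and the mean was 798 ± 216 CPM (SD, n = 15). Every other named class lay below the lowest astrocyte library, with means of 142 ± 63.6 CPM in mural cells, 126 ± 64.9 CPM in OPCs, 106 ± 40.1 CPM in ependymal cells and 69.1 ± 51.4 CPM in neurons. Mural cells were above OPCs in 8 of 15 libraries, so their order was not resolved. The mural level depended on the method, at 388.1 CPM with classes set by marker UMIs and 217 CPM when CPM was averaged over cells. Oligodendrocytes (31.6 ± 12.1 CPM), endothelial cells (20.9 CPM), macrophages (20.7 CPM) and microglia (15.8 CPM) were lowest. An unnamed cluster of 111 cells led by C030005K06Rik, Trim9 and Ngef reached 557 ± 43.6 CPM (SD, n = 3 libraries). In that cluster 77.5% of cells were called doublets and astrocyte markers stood at 12780.1 CPM, and their part in its Atp1b2 level was not tested.

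Atp1b3 had the opposite distribution, with its highest level in oligodendrocytes. There it ranged from 457.8 to 926.8 CPM with a median of 602.9 CPM, and the mean was 615 ± 132 CPM (SD, n = 15). Macrophages came next among the named classes at 266 ± 109 CPM (54.09 to 511.1 CPM, n = 14). Mural cells (157 ± 62.7 CPM), microglia (152.5 ± 34.6 CPM) and endothelial cells (151 ± 44.7 CPM) were alike, as mural cells were above microglia in 6 of 15 libraries and microglia above endothelial cells in 9 of 15. OPCs (111 ± 52.6 CPM), neurons (87.0 ± 48.5 CPM) and astrocytes (77.1 ± 19.8 CPM) were at the low end, with neurons above astrocytes in 9 of 15. The spread from highest to lowest class was smaller for Atp1b3 than for the other two genes. An unnamed cluster led by Npy, Ccl5 and Ms4a4b (764 cells) had 322 ± 132 CPM of Atp1b3. It was below oligodendrocytes in 15 of 15 libraries, drew 52.09% of its cells from THY-Tau22 male replicate 3, and carried oligodendrocyte markers at 25416 CPM. Its leading genes held the T or NK cell markers Trac, Trbc2, Nkg7, Ccl5 and Ms4a4b and the oligodendrocyte marker Mobp. Of its cells 26.05% were called doublets.

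**Figure D1:**
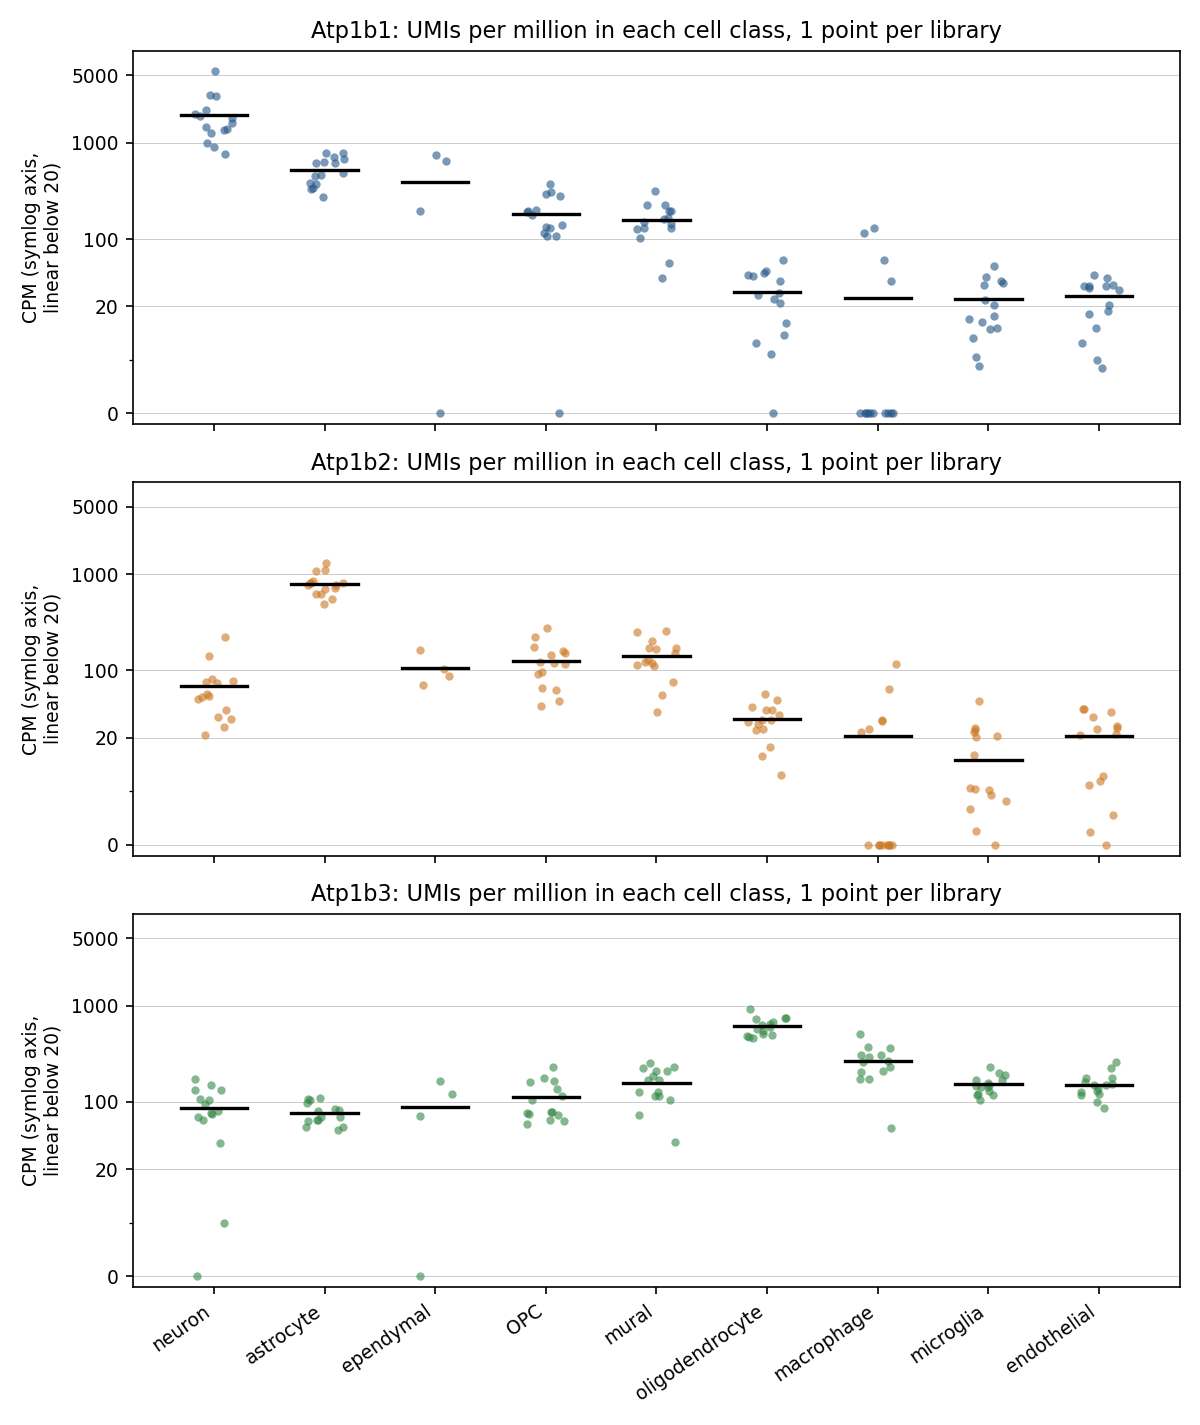
CPM of Atp1b1, Atp1b2 and Atp1b3 (vertical axes, logarithmic above 20 and linear below) in the 9 named cell classes, with 1 point per library and a bar at the mean. Atp1b1 is highest in neurons (mean 1961), Atp1b2 in astrocytes (798) and Atp1b3 in oligodendrocytes (615), and points at 0 are libraries without a UMI of the gene in that class.

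Isoform use was computed as each gene's percent of the summed β UMIs of a class in a library. Neurons used Atp1b1 for 91.0 ± 4.9% of their β UMIs and oligodendrocytes used Atp1b3 for 91.1 ± 3.0% (SD, n = 15). Atp1b3 also made up 88.6 ± 14.5% in macrophages, 79.8 ± 8.2% in microglia and 76.4 ± 6.9% in endothelial cells. In neurons Atp1b1 was above each of the other two genes in 15 of 15 libraries without overlap, and in oligodendrocytes, microglia and endothelial cells the same held for Atp1b3.

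Astrocytes were the class that carried a pair of isoforms at high level. Atp1b2 made up 57.1 ± 6.8% and Atp1b1 37.3 ± 6.9% of their β UMIs, with 5.63 ± 1.3% for Atp1b3. Atp1b2 was above Atp1b1 in 14 of 15 libraries, and the exception was WT female replicate 1, with 777.3 CPM of Atp1b1 against 716.1 CPM of Atp1b2. OPCs and mural cells were more mixed. In OPCs the shares were 42.3% Atp1b1, 30.6% Atp1b2 and 27.1% Atp1b3, and in mural cells they were 34.9%, 31.0% and 34.1%. In OPCs Atp1b1 was above Atp1b2 in 10 of 15 libraries and above Atp1b3 in 12 of 15, with overlapping ranges, and in mural cells it was above Atp1b2 in 8 of 15.

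The summed level of the β genes also separated the classes. Neurons had 2117 ± 1205 CPM of β UMIs, astrocytes 1402 ± 338 CPM and oligodendrocytes 675 ± 144 CPM (SD, n = 15). Mural cells (456 ± 118 CPM), OPCs (421 ± 149 CPM) and macrophages (311 CPM) were intermediate, and endothelial cells (197 ± 53.0 CPM) and microglia (192 ± 46.2 CPM) lowest.

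**Figure D2:**
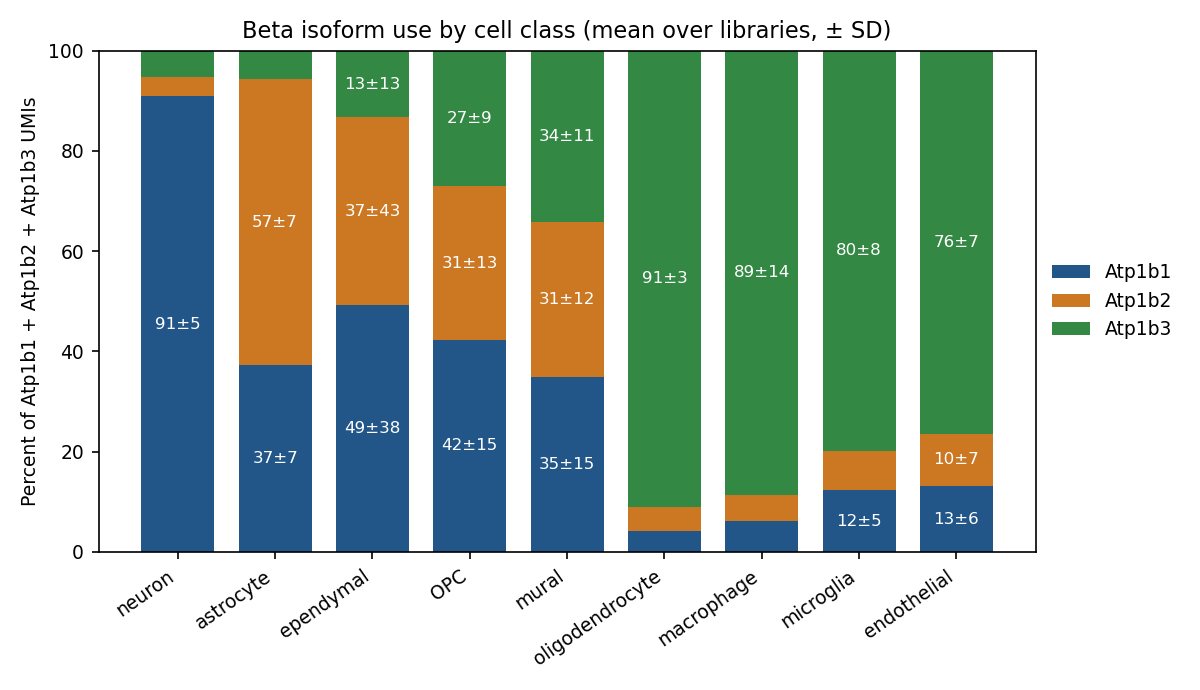
Percent of the summed Atp1b1, Atp1b2 and Atp1b3 UMIs (vertical axis) taken by each gene in the 9 named cell classes, as stacked means over libraries with mean ± SD printed inside the larger blocks. Neurons are mostly Atp1b1 (91.0%), oligodendrocytes mostly Atp1b3 (91.1%), astrocytes split between Atp1b2 (57.1%) and Atp1b1 (37.3%), and OPCs and mural cells are mixed.

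At a fixed depth of 400 UMIs per cell, Atp1b1 was seen in 35.57% of neurons, 15.99% of astrocytes and 0.7755% of microglia. Atp1b2 was seen in 25.62% of astrocytes and 0.6697% of microglia, and Atp1b3 in 20.31% of oligodendrocytes, 5.516% of microglia, 5.74% of endothelial cells and 2.942% of astrocytes. Without thinning the leading shares were 52.7% for Atp1b1 in neurons, 35.72% for Atp1b2 in astrocytes and 31.34% for Atp1b3 in oligodendrocytes, at median depths of 708, 571 and 593 UMIs, against 515 UMIs in microglia. Thinning left out the shallower cells, which were 162 neurons, 983 astrocytes, 836 oligodendrocytes and 2245 microglia. These shares cover single UMIs in shallow cells, so most cells without one cannot be read as lacking the transcript.

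Droplets also take up free RNA, so the β UMIs of each class were set against the markers of the classes where the gene was high. Within a library, the ratio of the β gene to those markers in the source class gave the number of β UMIs that the marker UMIs of another class would carry. The table of THY-Tau22 male replicate 4 was left out of these sums, which leaves 15 libraries. For Atp1b1, with neurons and astrocytes as sources, microglia had 99 UMIs against 128.8 at the source ratio, oligodendrocytes 98 against 127.6, endothelial cells 75 against 66.8 and macrophages 10 against 9.68. For Atp1b2, with astrocytes as source, microglia had 65 UMIs against 109.5, oligodendrocytes 110 against 139.4 and endothelial cells 51 against 55.3. Against these sources the ratios in the 4 classes were 0.594 to 1.12. For Atp1b1 the result depended on the source. With neuron markers alone there were 6.517 Atp1b1 UMIs per 100 marker UMIs in neurons, but 14.78 in microglia, 19.88 in oligodendrocytes, 16.48 in endothelial cells and 14.71 in macrophages, and the joint source was chosen after seeing the data. No expression was read from the low levels of Atp1b1 and Atp1b2 in these classes.

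Mural and ependymal cells stood apart from that group. Mural cells held 183 Atp1b1 UMIs against 33.4 at the source ratio (5.48-fold, above in 15 of 15 libraries) and 173 Atp1b2 UMIs against 30.8 (5.63-fold, 15 of 15). Ependymal cells held 82 Atp1b1 UMIs against 4.17 (19.7-fold, above in 3 of 4 libraries) and 15 Atp1b2 UMIs against 2.93 (5.12-fold, 4 of 4). OPCs were closer to the line, with ratios of 1.37 for Atp1b1 (above in 11 of 15 libraries) and 1.69 for Atp1b2 (13 of 15), and Atp1b2 in neurons had a ratio of 1.52 (12 of 15). OPCs carried neuron markers at 1140 CPM and astrocyte markers at 2074 CPM, against 159.3 and 684.2 CPM in mural cells. The ratio takes all marker UMIs of a class as free RNA. The part of marker RNA made by the cells themselves or brought by doublets was not tested. The mural class also carried endothelial markers at 12380.2 CPM, against 8485 CPM for its own markers and 18751 CPM for endothelial markers in the endothelial class.

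Atp1b3 was above the level that oligodendrocyte markers would carry in every class tested. Microglia had 703 UMIs against 26.3 (26.7-fold), endothelial cells 412 against 15.0 (27.4-fold), mural cells 203 against 10.5 (19.4-fold) and astrocytes 261 against 22.6 (11.5-fold), each in 15 of 15 libraries. Macrophages had 79 UMIs against 10.1 (7.86-fold, 14 of 14 libraries). The smallest ratios were 3.50 in neurons (117 against 33.5 UMIs, above in 14 of 15) and 3.22 in OPCs (93 against 28.9 UMIs, 15 of 15). Oligodendrocytes were the only source in these ratios, so free Atp1b3 RNA from other classes was not covered. In the 19470 barcodes with fewer than 200 genes, which mix empty droplets with shallow cells, the means were 220.6 CPM for Atp1b1, 233.3 CPM for Atp1b2 and 151 CPM for Atp1b3. Mean Atp1b3 was below that value in astrocytes (77.1 CPM), neurons (87.0 CPM), ependymal cells (89 CPM) and OPCs (111 CPM). The part of free RNA in these classes was not tested.

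**Figure D3:**
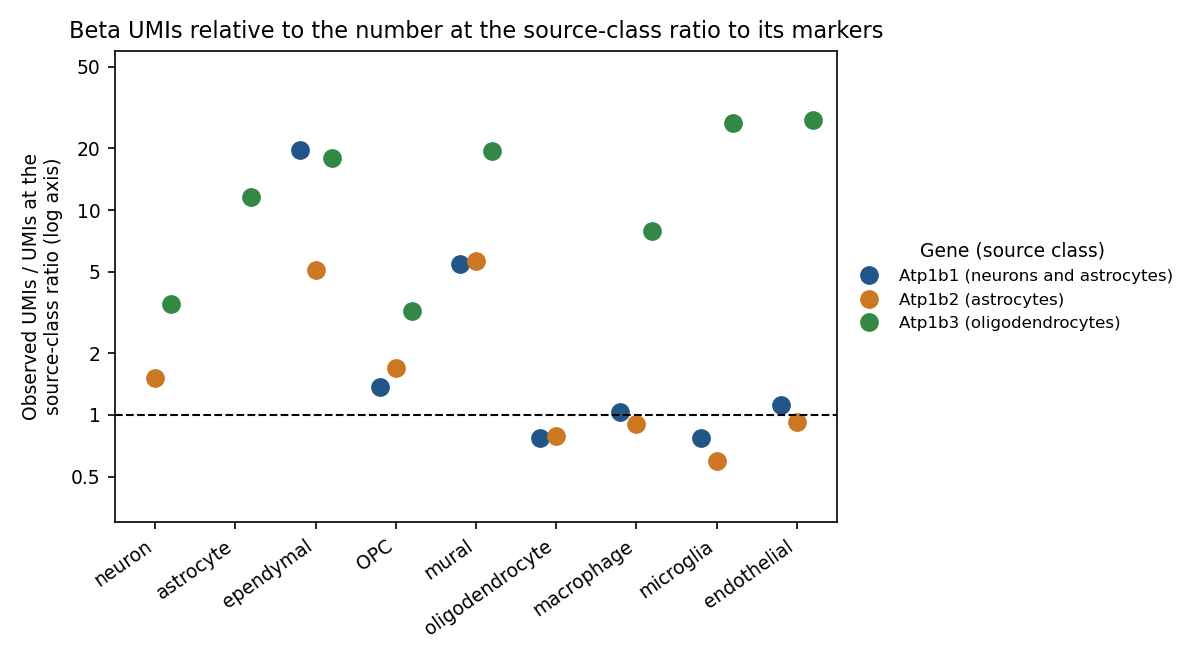
Observed UMIs of each β gene divided by the UMIs that its source-class markers would carry (vertical axis, logarithmic; dashed line at 1) in the 9 named cell classes. Atp1b1 and Atp1b2 lie at 0.594 to 1.12 in microglia, oligodendrocytes, macrophages and endothelial cells. Both lie above 5 in mural and ependymal cells, whereas Atp1b3 lies above 3 in each class other than its source.

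Most of the Atp1b2 that oligodendrocytes did show came from few cells. A cluster of 196 oligodendrocytes led by St18, Galnt6 and Fa2h had 375.3 CPM of Atp1b2, and it held 63 of the 118 Atp1b2 UMIs of the class over all 16 tables. In that cluster 68.37% of cells were called doublets and astrocyte markers stood at 9956 CPM, against 614 CPM in the main oligodendrocyte cluster. The main cluster of 4963 cells had 14.4 CPM of Atp1b2, 18.9 CPM of Atp1b1 and 652.1 CPM of Atp1b3. With all called doublets removed, the oligodendrocyte mean of Atp1b2 was 19.58 CPM and the Atp1b3 share 93.98%.

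Within classes, the β genes were also compared between cells with and without a UMI of a second marker. Means without a marker UMI are over 15 libraries, and means with one are over fewer. Only the counts of libraries compare both kinds of cell within the same libraries. Neurons with a UMI of Gad1 or Gad2, which make GABA, had 2873 ± 1985 CPM of Atp1b1 (263 cells, 10 libraries) against 1749 ± 912 CPM in the other 1198 neurons, and were higher in 9 of 10 libraries. Neurons with a UMI of Slc17a7, the glutamate transporter of excitatory synapses, were also higher, in 6 of 7 libraries (1917 against 1792 CPM). Mural cells with a UMI of the contractile genes Acta2, Tagln or Myh11 (327 cells, 14 libraries) had 240.5 ± 107 CPM of Atp1b1 against 72.2 ± 102 CPM without, and were higher in 12 of 14. These levels rested on 159 and 39 Atp1b1 UMIs. Atp1b2 did not follow that split, with 149 CPM against 155 CPM and a higher value in 5 of 14 libraries. Microglia with a UMI of Clec7a, Cst7 or Itgax, genes raised in activated microglia, had 213.7 ± 162.5 CPM of Atp1b3 against 150.6 ± 32.8 CPM, and were higher in 8 of 11 libraries. The level with a marker UMI rested on 44 Atp1b3 UMIs from 256 cells, with 0 CPM at its lowest. Cells with a marker UMI were deeper in the mural class (median 1127 against 654 UMIs), in microglia (643 against 511) and for Slc17a7 (1290.0 against 676), but not for Gad1 or Gad2 (642 against 738.5), and the part of depth in these differences was not tested.

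Genes with the most similar pattern were ranked by Pearson's r of mean log2(CPM + 10) over the 9 named classes, among 7664 genes. For Atp1b1 they were Nat14 (r = 0.964), Pfkp (0.962), Atp2a2 (0.953), Tusc3 (0.948) and Chic1 (0.947). Pfkp is a phosphofructokinase of glycolysis and Atp2a2 is the calcium pump of the endoplasmic reticulum. For Atp1b2 they were Atp5b (0.953), Acat1 (0.950), Cyp7b1 (0.934), Cdh2 (0.933) and Farp1 (0.930), of which Atp5b is a subunit of the mitochondrial ATP synthase and Cdh2 is N-cadherin. For Atp1b3 they were Kif13b (0.979), Cers2 (0.929), Tbc1d15 (0.929), Fth-ps3 (0.926) and Gm1848 (0.918), of which Kif13b is a kinesin motor and Cers2 makes the very long-chain ceramides of myelin. Over the same 9 classes r was 0.68 between Atp1b1 and Atp1b2, −0.72 between Atp1b1 and Atp1b3, and −0.57 between Atp1b2 and Atp1b3. All classes came from the same libraries, and these values are a description over 9 points.

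Genes that work with the pump also differed between the classes. Among the FXYD proteins, small regulators that bind the pump, Fxyd1 was highest in ependymal cells (378.6 CPM) and astrocytes (286 CPM), Fxyd5 in endothelial cells (341.8 CPM) and mural cells (285.3 CPM), Fxyd6 in OPCs (217.3 CPM) and Fxyd7 in neurons (41.3 CPM). Of the Nkain genes, whose products bind β1, Nkain4 was highest in astrocytes (204.9 CPM), Nkain2 (55.4 CPM) and Nkain1 (24.0 CPM) in oligodendrocytes and Nkain3 in OPCs (23.5 CPM). The calcium pumps Atp2b1 (2076 CPM), Atp2a2 (600.5 CPM), Atp2b2 (546.2 CPM) and Atp2b4 (354 CPM) were highest in neurons. The sodium-driven transporters Slc1a2 (10921 CPM), Slc1a3 (3485 CPM) and Slc4a4 (1734 CPM) were highest in astrocytes, where they also served as class markers, and Slc12a2 was highest in oligodendrocytes (1111 CPM). Of the potassium channels, Kcnj10 was found in astrocytes (348.7 CPM), oligodendrocytes (327 CPM), ependymal cells (262.3 CPM) and OPCs (240.9 CPM). Kcnk1 (486.9 CPM) and Kcnj16 (365.1 CPM) were highest in astrocytes, and Kcna2 was at 169.5 CPM in neurons.

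The genotype comparison asked whether THY-Tau22 and WT mice differed in each sex. edgeR's quasi-likelihood test was fitted to summed UMIs over all genes, in all kept barcodes and in the 6 large classes, for males, females, their average and the difference between the sexes. Calls needed an adjusted p (Benjamini-Hochberg) under 0.05 and a log2 fold change of 0.5 or more in size. Of 84 possible tests of the β genes 56 passed the filter on low counts, and 0 were called. At an unadjusted edgeR p under 0.05 there were 5, with 1 of 14 tests in males, 1 in females, 2 for the average and 1 for the sex difference. Over all genes the share at that p was 6.98 to 17.7% in males, 1.74 to 3.85% in females, 4.22 to 7.12% for the average and 5.6 to 17.9% for the sex difference, depending on the level. DESeq2 called 0 β genes over all kept barcodes and in the neuron, astrocyte and oligodendrocyte classes, and among all genes it called 15 over all kept barcodes and 34 in oligodendrocytes of males, and 9 in astrocytes and 22 in oligodendrocytes for the sex difference. The percent of all genes called by edgeR in either direction was 0 in all kept barcodes, astrocytes, endothelial cells and neurons in each of the 4 comparisons, 0.529% in microglia of males (0.471% higher and 0.0588% lower), 0.0694% in oligodendrocytes of males, 0.0231% in oligodendrocytes of females, 0.416% for the sex difference in oligodendrocytes, 0.0819% in OPCs of males and for the average, and 0.0196% for the average in microglia. Fewer cells of a type and less RNA per cell cannot be told apart over all kept barcodes.

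In neurons, Atp1b1 was 900.4, 1896 and 1612 CPM in WT males and 1249.7, 1398 and 3046 CPM in THY-Tau22 males. The ranges overlapped, and the single high library was THY-Tau22 male replicate 3. The log2 fold change was 0.28 ± 0.41 (SE, edgeR adjusted p = 0.894), and without that library it was −0.18. In females the WT values were 2008, 1365 and 767.2 CPM and the THY-Tau22 values 1809, 2202, 3125, 5602 and 993.1 CPM. The lowest value in each female group (767.2 and 993.1 CPM) came from its library with the code MB22 in the title. All other libraries carry a different code there, and its meaning is not given in the sources used here. The means were 2746 ± 1771 CPM in THY-Tau22 (SD, n = 5) and 1380.1 ± 620 CPM in WT (n = 3), again with overlap. The log2 fold change was 0.87 ± 0.39 (edgeR unadjusted p = 0.0319, adjusted p = 1), while the exact two-sided permutation test on CPM gave p = 0.268, with 0.0179 the smallest p that 5 against 3 allows. The highest value, in THY-Tau22 female replicate 4, rested on 144 UMIs from 41 neurons, with the lowest neuron marker level of all libraries (15483 CPM). Removing the richest cell left it at 5375 CPM.

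In astrocytes, Atp1b2 was 546.1, 775.7 and 489.4 CPM in WT males and 804.6, 698.2 and 1079 CPM in THY-Tau22 males, with overlap (log2 fold change 0.26 ± 0.27). In females it was 716.1, 1289.7 and 621.3 CPM in WT and 1102, 844.5, 762.6, 805.1 and 811.6 CPM in THY-Tau22 (0.07 ± 0.24). The THY-Tau22 females all lay inside the WT range. Atp1b1 in the same cells was 274.5, 464.4 and 336.9 CPM in WT males and 614, 616.3 and 680.4 CPM in THY-Tau22 males, and the ranges did not overlap. The log2 fold change was 0.59 ± 0.27 (edgeR unadjusted p = 0.0381, adjusted p = 0.258). In males 17.7% of all astrocyte genes had an unadjusted p under 0.05, and 27.37% had ranges that did not overlap. In females the ranges overlapped (log2 fold change −0.16 ± 0.24), and the difference between the sexes was 0.75 ± 0.36 (edgeR adjusted p = 0.273).

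In oligodendrocytes, Atp1b3 was 537.6, 499.5 and 567.7 CPM in WT males and 749.3, 680.3 and 926.8 CPM in THY-Tau22 males, without overlap. The exact two-sided permutation p was 0.1, the smallest that 3 against 3 allows, and the log2 fold change was 0.34 ± 0.24 (edgeR adjusted p = 0.484). The library shared by a WT and a THY-Tau22 label gave 648.1 and 602.9 CPM in its tables, both between the groups. In females Atp1b3 was 475.2, 726.4 and 481.3 CPM in WT and 602.9, 510.4, 641.5, 457.8 and 744.8 CPM in THY-Tau22, with overlap (0.14 ± 0.22). Median depth in the oligodendrocyte class was 671, 546 and 508 UMIs in WT males and 540, 519 and 969 UMIs in THY-Tau22 males. The library at 969 UMIs was also the highest in Atp1b3, at 926.8 CPM. Over all kept barcodes the median depth overlapped between the male groups, at 494 to 619 UMIs in WT and 496 to 714 UMIs in THY-Tau22. Mitochondrial RNA separated them without overlap: the median share of mitochondrial UMIs, rRNA included, was 22.23, 16.35 and 18.08% in WT males and 11.45, 13.29 and 13.05% in THY-Tau22 males, and that of mitochondrial mRNA was 0.409, 0.571 and 0.351% in WT males and 0.952, 0.889 and 1.325% in THY-Tau22 males. Their part in the male differences was not tested.

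**Figure D4:**
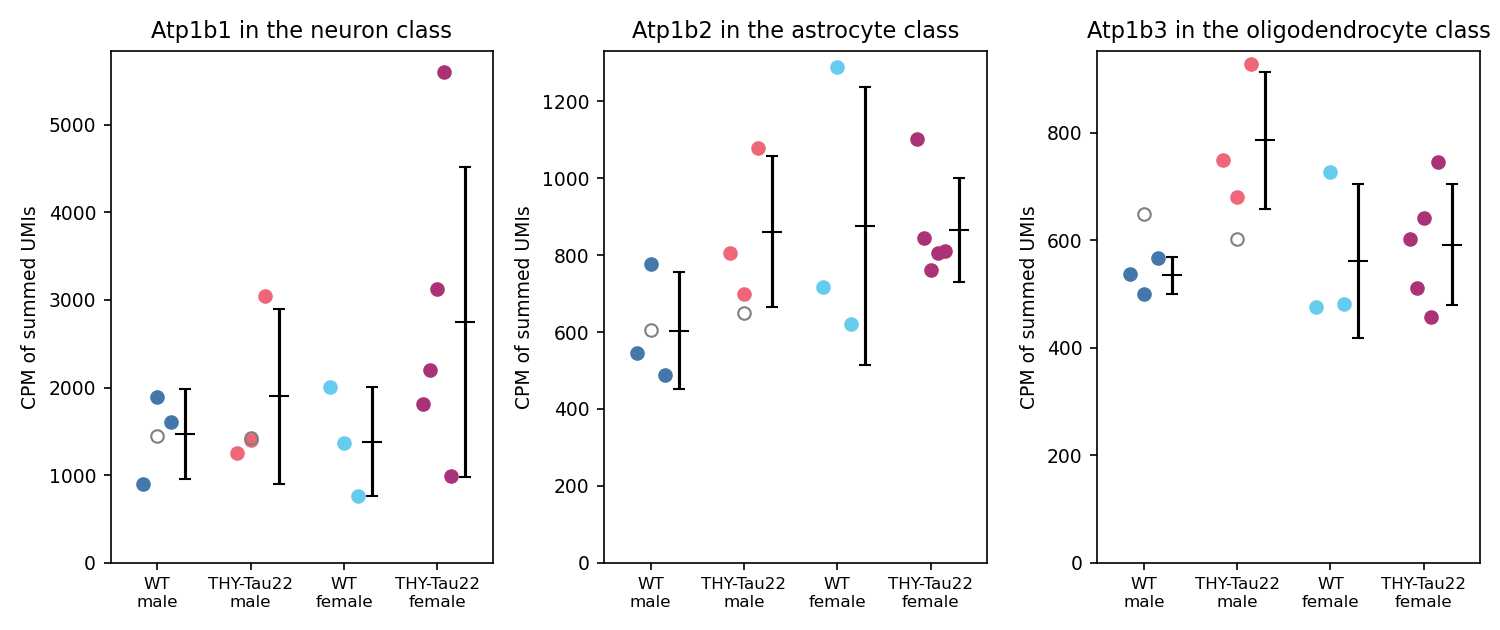
CPM of Atp1b1 in neurons, Atp1b2 in astrocytes and Atp1b3 in oligodendrocytes (vertical axes from 0) in WT and THY-Tau22 males and females, with 1 filled point per library, black bars at mean ± SD, and open grey circles for the shared library under each of its labels. The groups overlap in each panel apart from Atp1b3 in males, where 680.3 to 926.8 CPM in THY-Tau22 lies above 499.5 to 567.7 CPM in WT.

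Over all kept barcodes, Atp1b3 was 209.6, 184.6 and 175.3 CPM in WT males and 312, 246 and 316 CPM in THY-Tau22 males, again without overlap. The log2 fold change was 0.43 ± 0.22 (edgeR adjusted p = 0.353), and it was 0.30 when all 16 tables were used as they were labelled. In females the values were 230.1, 287.2 and 163.7 CPM in WT and 237.1, 204.2, 189.4, 174.6 and 248.6 CPM in THY-Tau22 (−0.05 ± 0.20). Atp1b1 over all kept barcodes changed by 0.10 ± 0.30 in males and 0.55 ± 0.28 in females, and Atp1b2 by 0.17 ± 0.27 and 0.00 ± 0.24, with every edgeR adjusted p at or above 0.353.

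Across the levels, 5 of 21 male comparisons of a β gene had ranges that did not overlap, with THY-Tau22 higher in all 5, and 0 of 21 female comparisons did. All 5 were among the 14 male comparisons that passed the low-count filter. Of all genes that passed it, 14.06 to 29.06% did not overlap in males and 1.185 to 3.053% in females, depending on the level. In males THY-Tau22 lay above in 8.279 to 22.37% of these genes and WT above in 5.401 to 8.549%. No excess was read from so few comparisons. The male and female groups also differ in size, so their counts cannot be set against each other. The male set comprised Atp1b3 in all kept barcodes, oligodendrocytes and neurons, and Atp1b1 in astrocytes and OPCs. Atp1b3 in neurons was 95.5, 10.03 and 37.79 CPM in WT males and 172.4, 149 and 106.9 CPM in THY-Tau22 males (log2 fold change 1.24 ± 0.61, edgeR adjusted p = 0.656). These values rested on at most 14 UMIs per library. THY-Tau22 female replicate 4 had 0 Atp1b3 UMIs in neurons, which allows up to 116.7 CPM by counting error. Atp1b1 in OPCs ranged from 108 to 190.5 CPM in WT males and from 195.1 to 371.6 CPM in THY-Tau22 males, and averaged over the sexes its log2 fold change was 0.75 ± 0.35 (edgeR unadjusted p = 0.0386, adjusted p = 0.683). The exact permutation test of that average gave 118.9 CPM (p = 0.02321). For Atp1b2 in OPCs, which did not pass the low-count filter, it gave 75.05 CPM (exact permutation p = 0.0125). Neither p was adjusted for the 21 comparisons. The OPC values rested on few UMIs per library, from 0 (WT female replicate 2) to 18 for Atp1b1. For Atp1b2 they ran from 2 (as in the 19 OPCs of THY-Tau22 male replicate 3) to 19. The shared library, left out of these comparisons, did not lie with the THY-Tau22 males. Its table under that label gave 191.8 CPM for Atp1b3 in all kept barcodes and 57.71 CPM for Atp1b3 in neurons. For Atp1b1 that table gave 444.7 CPM in astrocytes and 187.2 CPM in OPCs, and each of these values lay within the WT male range. Its table under the WT label gave 213 CPM for Atp1b3 in all kept barcodes and 518.6 CPM for Atp1b1 in astrocytes, both between the groups. Of the 14 β tests in males 13 had a positive fold change and of the 14 in females 6 did, beside 51.2 and 47.9% of all genes over all kept barcodes. The tests share libraries and the levels share cells, so these counts are not independent.

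**Figure D5:**
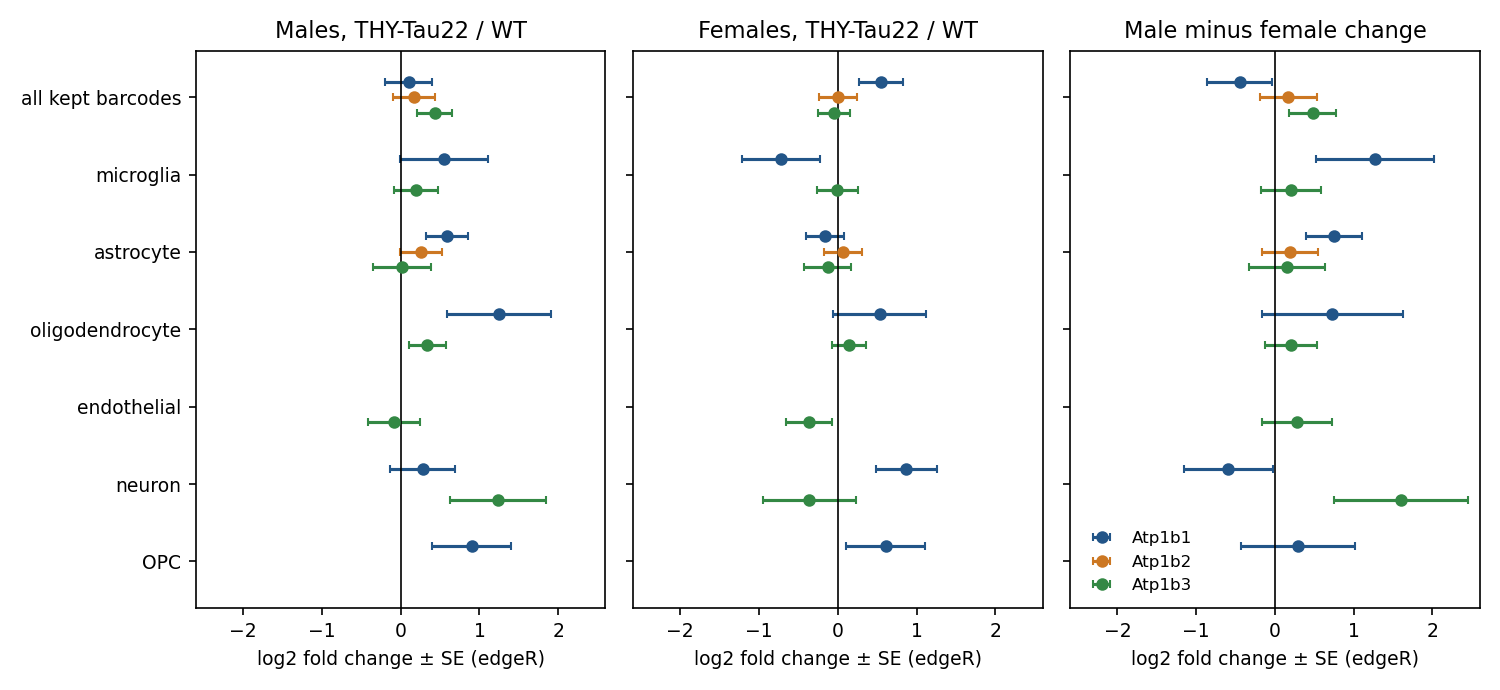
log2 fold change of THY-Tau22 against WT in males and in females, and the male minus the female change (horizontal axes, points with edgeR SE bars), for each β gene that passed the low-count filter in all kept barcodes and the 6 large classes. Most male points lie right of 0 (13 of 14) and the female points lie on both sides (6 of 14 higher), and 0 were called in any panel.

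In microglia and endothelial cells, where Atp1b3 was the main isoform, its log2 fold changes were 0.19 and −0.09 in males and −0.01 and −0.37 in females, none called. The other genes of the pump system gave the same count. Over 5 lists (FXYD regulators, related pump subunits and β-interacting proteins, calcium pumps, sodium-gradient transporters and potassium channels) 404 tests passed the filter and 0 were called by edgeR. At an unadjusted p under 0.05, 11 were higher and 15 lower in all comparisons together, with 7 and 8 of 101 tests in males and 0 and 0 in females. The male background was 6.98 to 17.7% of all genes. In males, Fxyd1 in astrocytes had a log2 fold change of 1.02 ± 0.33 (edgeR adjusted p = 0.150), Fxyd5 in endothelial cells 0.94 ± 0.35 (adjusted p = 0.216) and Atp2b1 in oligodendrocytes −0.88 ± 0.26 (adjusted p = 0.117). Over all kept barcodes the male median log2 fold changes were 0.46 for the FXYD list (4 of 7 genes tested), 0.52 for related subunits and β-interacting proteins (3 of 8), −0.55 for calcium pumps (5 of 7), −0.15 for the transporters (15 of 16) and −0.01 for the channels (5 of 5), beside 0.01 for all genes tested. In females the medians were −0.22, −0.26, 0.16, 0.09 and 0.14, beside −0.01 for all genes.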

How the data were processed

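Fresh cortex was dissociated and run through a modified Drop-seq protocol with paired-end sequencing on a NextSeq 500. The authors deposited 16 tables of UMI counts (genes by 3000 barcodes each, raw and not normalized), made with the standard Drop-seq pipeline; the submitters' processing notes name mm10, and the aligner version and gene annotation are not given in the sources used here. The replicate numbers are names in accession order.

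The β genes and all lists were chosen with earlier results of these data known. Barcodes with 200 to 7000 genes were kept, log-normalized and clustered (scanpy 1.11.5, 2500 variable genes without 15 pump genes, 19 components, Leiden resolution 0.5), giving 18 clusters. A cluster was named from at least 3 leading markers and left unnamed if over 50% of its cells came from 1 library. Doublets called by Scrublet (1603 cells, 5.619%) were kept in the main values and removed in an alternative. A class level needed at least 10 cells in a library.

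Genotype was tested on UMI sums by edgeR 4.0.16 (TMM, filterByExpr, quasi-likelihood, 4 group means) with DESeq2 1.42.0 as an alternative, both in R 4.3.3, checked on simulated counts. Permutation tests were exact and two-sided. Each library came from 1 mouse, per the study's methods. Genes named were the β genes, those most like each in pattern (5 per gene) and up to 4 members per list with the most UMIs. One fixed list is not reported here. Intervals and limits from UMIs cover counting error only. Of 30389 symbols, 29079 were in GENCODE M21. Alternatives covered normalization, filters, thresholds on barcodes, clustering, doublets, the shared library and each replicate left out.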

Additional observations from a re-analysis of the deposited data

Results flagged for a closer look

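In groups of 4 to 10 libraries, the gap between the extreme library and its neighbour was set against the range of the group. The groups were taken as labelled, so the shared library entered both male groups. Its THY-Tau22 table gave the values of 1428 and 143 CPM below. Without it 3 libraries are left in each male group, too few for this check. Of 63 groups 3 exceeded Dixon's 95% value, where chance gives about 1 in 20. Atp1b1 in neurons of THY-Tau22 male replicate 3 was 3046 CPM, against 1249.7, 1398 and 1428 CPM in the other tables of its group (gap over range 0.9007); its richest cell held 23.16% of these UMIs, and without that cell the value was 2765 CPM. The same library stood out for Atp1b3 in microglia, with 231.5 CPM against 156.9, 149.2 and 143 CPM (0.8429). Atp1b2 in astrocytes of THY-Tau22 female replicate 1 was 1102 CPM, against 844.5, 762.6, 805.1 and 811.6 CPM (0.7587).

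By an exact two-sided permutation of genotype within sex, the male minus female change had an unadjusted p under 0.05 in 2 of 21 comparisons. Shuffling genotype in both sexes assumes no effect in either, so a small p does not by itself show a sex difference. For Atp1b3 over all kept barcodes the male minus the female difference was 117.7 CPM (exact permutation p = 0.04643), and for Atp1b3 in neurons it was 129.8 CPM (exact permutation p = 0.025). Both had a Benjamini-Hochberg adjusted permutation p of 0.328 over the 21 comparisons. The edgeR interactions did not pass either, with adjusted p = 0.481 and 0.844.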

How the results depend on the processing

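Of 612 alternative values of the fold changes of the β genes over all kept barcodes and of each in its leading class, 1 passed its threshold: the permutation test of the sex difference in Atp1b3 over all kept barcodes (117.7 CPM, p = 0.04643, adjusted p = 0.328 over 21 comparisons), and no edgeR or DESeq2 setting did, with a smallest adjusted p of 0.165 (Atp1b3 in males without TMM). The sign differed in 15. Leaving out each replicate in turn gave log2 fold changes over all kept barcodes of −0.22 to 0.29 for Atp1b1 in males, −0.06 to 0.37 for Atp1b2 in males, −0.03 to 0.27 for Atp1b2 averaged, −0.20 to 0.36 for its sex difference and −0.16 to 0.07 for Atp1b3 in females. In astrocytes Atp1b2 ranged from −0.07 to 0.34 in females and from −0.07 to 0.36 for the sex difference, and in neurons Atp1b1 ranged from −0.18 to 0.45 in males. The male and averaged values turned without THY-Tau22 male replicate 3, both sex differences without WT female replicate 2, Atp1b3 in females without WT female replicate 2 or THY-Tau22 female replicate 4, and Atp1b2 in astrocytes of females without THY-Tau22 female replicate 1 or WT female replicate 1 or 3. Atp1b2 in astrocytes of females was also −0.04 without TMM, −0.02 without the MB22 libraries and −10.48 CPM as a difference of means. Of 211 alternative levels and shares 6 moved by over 1 SD: Atp1b3 made up 87.79% of oligodendrocyte β UMIs with classes set by marker UMIs, where Atp1b1 in oligodendrocytes was 50.65 CPM, Atp1b2 in mural cells 388.1 CPM and Atp1b3 in macrophages 514.9 CPM, and with CPM averaged over cells Atp1b2 was 217 CPM in mural and 147.4 CPM in ependymal cells. The cause was not tested. In alternatives chosen after seeing the data, Atp1b1 in neurons was 1701 ± 720 CPM without THY-Tau22 female replicate 4, and without the richest cell of each library the leading levels were 1844, 779.5 and 596.8 CPM. The background ratio with neurons and astrocytes as joint sources of Atp1b1 was also chosen then. No paired analysis was possible because the replicate numbers only name libraries in accession order. Low UMI counts limit Atp1b3 in neurons, and Atp1b1 and Atp1b2 in OPCs and in the low classes.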
